A study of Homo sapiens with 6 samples.

Results

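The genes examined here are 10 lineage genes of the gut epithelium, read in AGS cells, an epithelial line from a human gastric adenocarcinoma. They are the trefoil peptides TFF1, TFF2 and TFF3, the stomach products GKN1, PGC and CLDN18, and the transcription factors SOX2, CDX1, CDX2 and GATA6. They were chosen by name, with earlier results of these data known. Of the 58201 different gene probes on the array, 15 carried an accession of 1 of them, among 22439 named genes in all. For 48 h the cells carried either a nontargeting siRNA, called si-Control, or si-C1GALT1-3, which is directed against C1GALT1, the galactosyltransferase that builds the core 1 structure of mucin-type O-glycans. Each group had 3 samples of total RNA from the same line, each on its own 1-colour Agilent array, and the comparison asked which transcripts differed after C1GALT1 knockdown. The model is 1 cell line and 1 siRNA sequence against its target, with no animals, genotypes or tissue around the cells.

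In the healthy stomach, surface mucous cells secrete TFF1 and GKN1, mucous neck and deep gland cells secrete TFF2, chief cells make the protease precursor PGC, and CLDN18 seals the epithelium as a tight junction protein. The intestine is marked instead by the homeobox factors CDX1 and CDX2 and by TFF3, a goblet cell peptide, whereas SOX2 belongs to the foregut and stomach and GATA6 is active along both. In intestinal metaplasia and in many gastric cancers, genes of the intestinal set appear in gastric epithelium.

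Promoter windows were at hand for 6 of the 10 genes, as 7 windows of 250 bases before and 50 after an annotated transcription start (RefSeq, GRCh38.p14). Those of GKN1 and CLDN18, whose probes were not well above background, are shown beside those of PGC and CDX2, whose brightest probes were measured on all 6 arrays. Capitals mark short motifs that were searched on both strands, where a match on the minus strand appears as its reverse complement. The motif of GATA factors was taken as AGATAA. That of the homeobox factors CDX1 and CDX2 was taken as TTTATG. For SOX factors such as SOX2 the letters searched were CATTGT. The box bound by the general initiation machinery was searched as TATAAA. The windows are GKN1 at chr2:68974386-68974685 (plus strand), CLDN18 at chr3:137998566-137998865 (plus strand, the upstream start, that of the lung-type transcript) and at chr3:138009915-138010214 (plus strand, the downstream start, that of the stomach-type transcript), PGC at chr6:41747348-41747647 (minus strand) and CDX2 at chr13:27969266-27969565 (minus strand), each read 5′ to 3′ along the gene.
GKN1: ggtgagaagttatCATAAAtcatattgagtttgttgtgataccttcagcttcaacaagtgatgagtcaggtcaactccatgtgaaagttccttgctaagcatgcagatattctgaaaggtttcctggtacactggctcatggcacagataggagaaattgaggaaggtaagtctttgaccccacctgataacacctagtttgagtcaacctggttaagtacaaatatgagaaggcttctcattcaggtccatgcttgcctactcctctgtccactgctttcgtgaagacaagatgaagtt
CLDN18 upstream start: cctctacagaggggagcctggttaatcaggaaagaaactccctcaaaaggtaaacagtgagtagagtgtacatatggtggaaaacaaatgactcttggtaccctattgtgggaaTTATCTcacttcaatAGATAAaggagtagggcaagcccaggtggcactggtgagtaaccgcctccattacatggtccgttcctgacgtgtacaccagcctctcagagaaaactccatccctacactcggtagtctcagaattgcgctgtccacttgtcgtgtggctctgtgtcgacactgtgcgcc
CLDN18 downstream start: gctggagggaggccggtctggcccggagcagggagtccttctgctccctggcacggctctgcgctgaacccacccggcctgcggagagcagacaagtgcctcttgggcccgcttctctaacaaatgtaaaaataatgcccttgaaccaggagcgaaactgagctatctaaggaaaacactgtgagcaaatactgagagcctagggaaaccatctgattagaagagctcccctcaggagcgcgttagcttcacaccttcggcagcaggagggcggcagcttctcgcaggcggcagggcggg
PGC: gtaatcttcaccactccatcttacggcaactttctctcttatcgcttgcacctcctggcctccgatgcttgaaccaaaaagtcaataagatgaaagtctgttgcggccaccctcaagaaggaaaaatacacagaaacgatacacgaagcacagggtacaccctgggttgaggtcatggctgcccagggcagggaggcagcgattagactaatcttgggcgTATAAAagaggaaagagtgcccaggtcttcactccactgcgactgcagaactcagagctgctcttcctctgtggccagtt
CDX2: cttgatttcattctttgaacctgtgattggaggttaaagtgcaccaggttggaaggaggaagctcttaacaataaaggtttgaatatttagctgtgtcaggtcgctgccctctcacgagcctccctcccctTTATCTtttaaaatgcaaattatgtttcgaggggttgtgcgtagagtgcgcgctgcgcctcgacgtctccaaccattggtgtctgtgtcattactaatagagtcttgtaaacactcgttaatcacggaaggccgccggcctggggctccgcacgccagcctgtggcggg
The GKN1 window held 1 CDX motif, 237 bases before the start. The upstream CLDN18 window held the GATA motif at 136 and at 121 bases before the start, and the downstream window held none of the 4 motifs. PGC had a TATA box 30 bases before the start, and CDX2 had a GATA motif 119 bases before it. The windows of SOX2 and GATA6, which are not printed, held none of the 4 motifs. Of all 35116 windows in the table, 10.3% held the GATA motif, 10.6% the CDX motif, 10.8% the SOX motif and 11.5% the TATA box, so that each match is a description of these letters and of nothing more.

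By the scanner software's own test, 66.2% to 72.7% of the gene spots on an array stood well above background, and no gene spot was saturated. On si-Control 2, a central area holding 15.9% of gene spots was dim, with 36.5% of spots well above background inside it against 71.9% outside, and its spots were set to missing on that array. The area held 5 of the 15 probes, so that SOX2, CLDN18, 1 of the probes of PGC and both dimmer probes of TFF3 rest on 2 control samples. Samples with the same number shared a slide, with si-Control always in the first column of arrays and si-C1GALT1-3 in the second, so that treatment and position on the slide cannot be told apart. All 8 epithelial markers examined, EPCAM, KRT8, KRT18, KRT19, CDH1, CLDN3, CLDN4 and CLDN7, were well above background on all 6 arrays, as were 4 of 5 leukocyte markers on every array where they were read, so the detection flag alone did not separate cell types.

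C1GALT1 itself had a normalized log2 signal of 12.22, 13.03 and 12.62 in si-Control 1, 2 and 3, and of 11.76, 11.98 and 11.13 in the si-C1GALT1-3 samples. Every knockdown sample was below every control sample, as were the groups of 10.4% of all probes tested. The log2 difference was -1.0 (SE 0.31, 95% interval -1.77 to -0.23) with an adjusted p of 0.265 (limma, Benjamini-Hochberg over all probes), and the probe did not pass the threshold for a change, which was an unadjusted p under 0.01 with at least a 2-fold difference. The within-slide differences were -0.47, -1.05 and -1.49 for slides 1, 2 and 3, so that the difference in the target was smallest on slide 1. It passed the threshold in 1 of 17 alternative analyses.

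Of the 10 lineage genes, 8 were well above background on all arrays read in at least 1 group, and none of them differed between si-C1GALT1-3 and si-Control by the threshold, which 2.64% of all 58193 probes tested passed, 1.65% higher and 0.992% lower. None had an adjusted p under 0.05, as 0.0842% of all probes did. None had groups without overlap, against 21.5% of all probes, 11% higher and 10.4% lower. On the probe with the highest mean signal for each gene, the log2 difference (si-C1GALT1-3 minus si-Control) was below 0 for 6 of the 8 and above 0 for PGC and CDX2, with a median of -0.28 and a range of -0.69 to 0.28. With 1 array left out, 5 to 7 of the 8 were below 0, and the median was -0.119 without si-Control 1, -0.179 without si-Control 3 and -0.415 without si-C1GALT1-3 1. Among the 17742 named genes that were as well measured, 46.5% were below 0, the median was 0.036, and the 5th and 95th percentiles were -0.80 and 0.89. For TFF1, TFF3, CDX2 and GATA6 the 95% interval of the difference lay inside 2-fold either way. For TFF2, PGC, SOX2 and CDX1 it did not, and a 2-fold difference in at least 1 direction was within the error of this fit, which leaves out the slide. With the slide as a block the SE fell from 0.40 to 0.14 for PGC and from 0.32 to 0.14 for CDX1, around the same differences of 0.030 and -0.23. It fell from 0.46 to 0.35 for TFF2 and rose from 0.47 to 0.60 for SOX2. The wide intervals of PGC and CDX1 are therefore those of the fit without the slide. Since RNA came from whole cultures, fewer expressing cells and less RNA per cell cannot be told apart in any of these values.

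**Figure D1:**
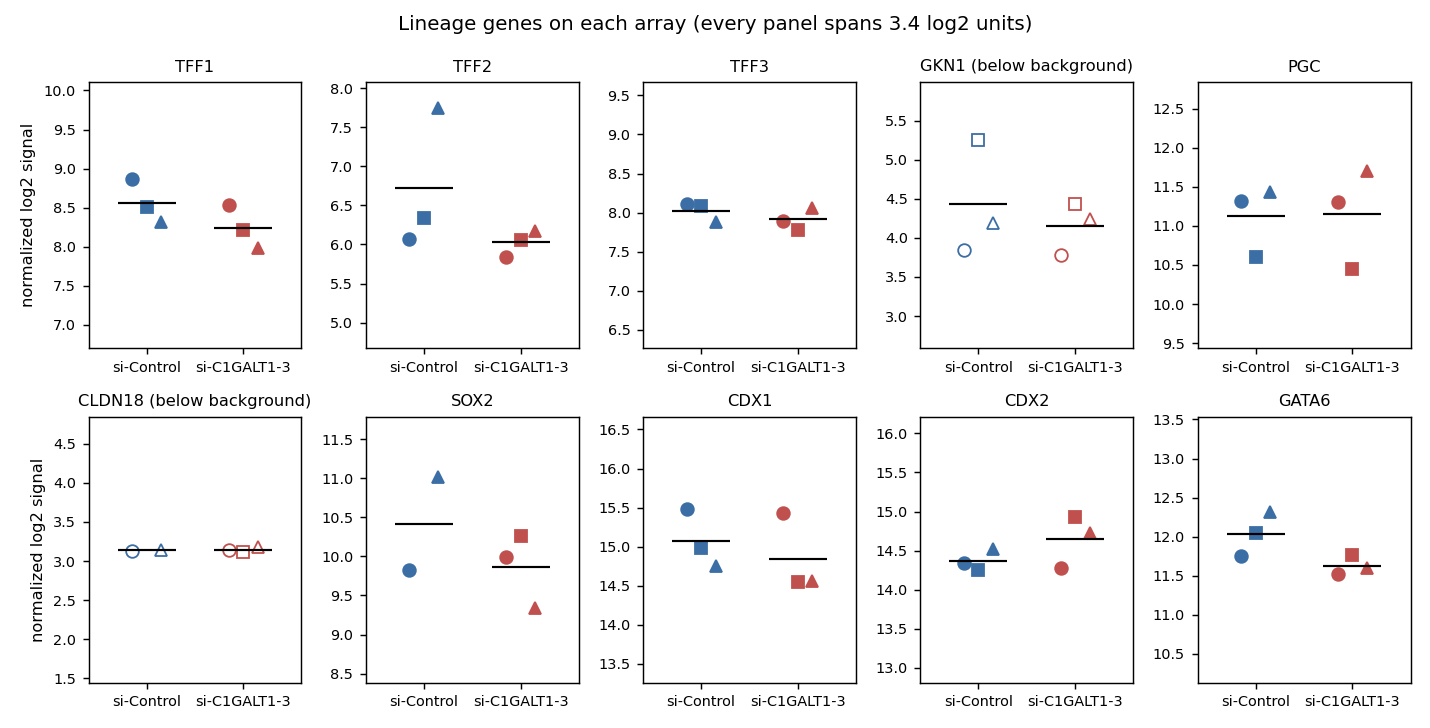
Normalized log2 signal (y axis, every panel spanning the same number of log2 units) of the 10 lineage genes in the si-Control (blue) and si-C1GALT1-3 (red) samples, with circles, squares and triangles for samples 1, 2 and 3, black lines for group means and open symbols for genes not well above background. The groups overlap in every panel, and si-Control 2 is missing for CLDN18 and SOX2, whose spots lay in the dim area.

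Among the trefoil peptides, small secreted proteins that stabilise the mucus layer and help surface repair, TFF1 had the smallest spread between slides. Its normalized log2 signal was 8.87, 8.51 and 8.31 in si-Control 1, 2 and 3 and 8.54, 8.21 and 7.98 in si-C1GALT1-3 1, 2 and 3 (probe A_24_P322771). The groups overlapped, since si-C1GALT1-3 1 was above both si-Control 2 and si-Control 3, but within each slide the knockdown sample was the lower, by differences of -0.33, -0.30 and -0.33. Without the slide the difference was -0.32 (SE 0.22, 95% interval -0.88 to 0.23) with an adjusted p of 0.589 (limma). It was -0.17 without si-Control 1 and -0.19 without si-C1GALT1-3 3. With the slide as a block it was the same with an SE of 0.11 and an unadjusted limma p of 0.0448, well short of the threshold, and 13.8% of all probes had an unadjusted p under 0.05 without the block.

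TFF2, the peptide of mucous neck and deep gland cells, had signals of 6.07, 6.34 and 7.75 in si-Control and of 5.84, 6.06 and 6.18 in si-C1GALT1-3. si-Control 3 stood above all others, and the remaining 5 samples lay between 5.84 and 6.34. The difference of -0.69 (SE 0.46, 95% interval -1.82 to 0.44, limma adjusted p 0.568) was the largest of the 8, and it was -0.23 and -0.27 on slides 1 and 2 against -1.57 on slide 3. Without si-Control 3 it was -0.18, and with another background correction, normexp on the median spot signal, it was -0.15. The TFF2 probe was well above background but dim, with processed intensities from 56.4 to 149.7, where the median gene spot had between 150.5 and 294.1.

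TFF3, the intestinal goblet cell peptide, was read by 3 probes. On the brightest, A_24_P289208, the signal was 8.10, 8.08 and 7.88 in si-Control and 7.90, 7.78 and 8.06 in si-C1GALT1-3. Both groups covered nearly the same range, and the difference was -0.11 (SE 0.15, 95% interval -0.47 to 0.25, limma adjusted p 0.806), the narrowest interval of the 8 genes. The probe A_23_P393099 was well above background on 1 of the 2 control arrays and 2 of the 3 knockdown arrays that were read, with a difference of -1.0 and an SE of 1.04, and A_33_P3334305 failed that test on every array read. The statement on TFF3 therefore rests on 1 probe of 3. The median over the probes read on each array gave -1.702. On si-Control 2 it took the brightest probe alone, since both dimmer probes were set to missing there. That value sets unlike probes against each other and is not read as a difference in TFF3. On the brightest probe the difference was -0.067 without si-Control 1, -0.044 without si-C1GALT1-3 2, and -0.18 without either si-Control 3 or si-C1GALT1-3 3.

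Of the stomach products GKN1, PGC and CLDN18, only PGC was measured. PGC, the precursor of the chief cell protease gastricsin, had signals of 11.32, 10.61 and 11.44 in si-Control and of 11.31, 10.45 and 11.70 in si-C1GALT1-3 on probe A_33_P3370714. Samples of the same slide lay close together, with slide 2 low in both groups, and the within-slide differences were -0.013, -0.16 and 0.26. The difference was 0.030 (SE 0.40, 95% interval -0.95 to 1.01, limma adjusted p 0.993), and with 1 array left out it lay anywhere from -0.25 (without si-C1GALT1-3 3) to 0.38 (without si-C1GALT1-3 2). The other PGC probe, A_23_P7965, carries the accession of another transcript and was read on 2 control arrays, at 6.76 and 7.57 in si-Control 1 and 3 and at 6.81, 6.56 and 6.25 in si-C1GALT1-3. Its difference was -0.62 (SE 0.33, limma adjusted p 0.484), of the opposite sign to the brighter probe, with -1.32 on slide 3 against 0.051 on slide 1. No direction was assigned to PGC.

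GKN1, a protein secreted by surface mucous cells and lost in many gastric cancers, was not well above background on any of the 6 arrays. Its processed intensity, before normalization and in arbitrary scanner units, was 20.4, 40.0 and 11.1 in si-Control and 16.5, 25.01 and 13.2 in si-C1GALT1-3, where the median gene spot had between 150.5 and 294.1. CLDN18 was likewise not well above background on any array that was read, with processed intensities of 11.8 and 7.19 in si-Control 1 and 3 and of 9.07, 8.28 and 8.73 in si-C1GALT1-3. Both genes were at the dim end in both groups, and no fold difference is given for either. The accession that the array gives for the CLDN18 probe is that of the lung-type transcript, and whether the probe also reads the stomach-type transcript was not tested.

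The transcription factors of the intestinal programme were measured on all 6 arrays. CDX2, which drives intestinal identity, had signals of 14.34, 14.25 and 14.52 in si-Control and of 14.28, 14.93 and 14.73 in si-C1GALT1-3 on its only probe. The samples si-C1GALT1-3 2 and 3 were above all controls and si-C1GALT1-3 1 was below si-Control 1. The difference was 0.28 (SE 0.21, 95% interval -0.24 to 0.80, limma adjusted p 0.624), with -0.063, 0.69 and 0.21 on slides 1, 2 and 3. It was 0.46 without si-C1GALT1-3 1 and 0.13 without si-C1GALT1-3 2. CDX1, its close relative, had signals of 15.48, 14.99 and 14.75 in si-Control and of 15.43, 14.54 and 14.56 in si-C1GALT1-3 on probe A_33_P3289848. Sample 1 was the highest in each group, and the difference of -0.23 (SE 0.32, 95% interval -1.03 to 0.57, limma adjusted p 0.820) was smaller than the spread within either group. Leaving out 1 array gave -0.023 without si-Control 1, -0.39 without si-Control 3, and -0.52, -0.078 and -0.088 without si-C1GALT1-3 1, 2 and 3. The second CDX1 probe well above background, A_23_P58788, gave -0.13 (SE 0.25), and the third, A_22_P00014880, failed the background test on every array.

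SOX2, a foregut and stomach factor, was read on 5 arrays, at 9.82 and 11.01 in si-Control 1 and 3 and at 9.99, 10.26 and 9.33 in si-C1GALT1-3. The controls enclosed every knockdown sample but the third, and the 2 slides disagreed, with differences of 0.17 on slide 1 and -1.68 on slide 3. The difference was -0.56 (SE 0.47, 95% interval -1.80 to 0.68, limma adjusted p 0.670). It was 0.039 without si-Control 3, -1.15 without si-Control 1 and -0.29 without si-C1GALT1-3 3. The spot on si-Control 2 had a processed intensity of 8.65, against 1136 and 1593 in the other controls, and with it kept the difference was 1.80. The sign for SOX2 therefore turned on that spot of the dim area and, with the spot masked, also on si-Control 3.

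GATA6, a zinc finger factor of both gastric and intestinal epithelium, came nearest to a difference by unadjusted p among the 8. Its signal was 11.75, 12.05 and 12.31 in si-Control and 11.52, 11.76 and 11.59 in si-C1GALT1-3. The groups overlapped through si-C1GALT1-3 2, which lay just above si-Control 1, and si-Control 1 was the lowest control. The difference was -0.41 (SE 0.19, 95% interval -0.88 to 0.053, limma adjusted p 0.411), and it was below 0 on each slide, at -0.23, -0.29 and -0.72. Over 17 alternative analyses it lay between -0.56 (without si-Control 1) and -0.27 (without si-Control 3). The unadjusted limma p was 0.073, and it was 0.023 without si-Control 1 and 0.048 with normexp, short of the threshold each time. In the main fit 13.8% of all probes had an unadjusted p under 0.05. TFF1, TFF2, CDX1 and GATA6 were lower in the knockdown sample on every slide. How many of all probes were so was not counted, so this is not read as a trait of the lineage genes. The largest difference was on slide 3 for TFF2 and GATA6, as for C1GALT1, but on slide 2 for CDX1, at -0.44. TFF1 was nearly level over the slides, and the slide 3 value of TFF2 came with the high si-Control 3. The part of the slide in these values was not tested.

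**Figure D2:**
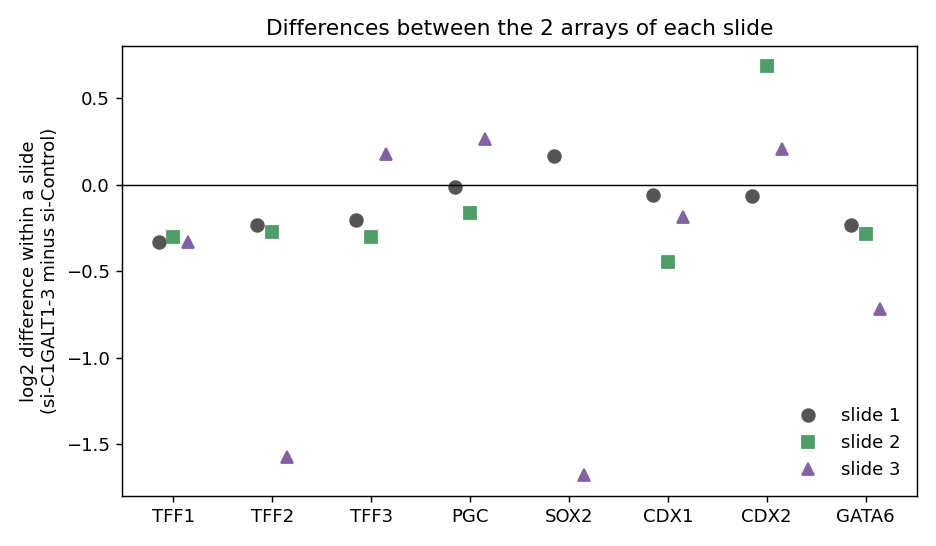
Log2 difference between the 2 arrays of each slide (y axis, si-C1GALT1-3 minus si-Control) for the 8 measured lineage genes, with 1 point per slide and no slide 2 point for SOX2. TFF1 has all 3 points between -0.33 and -0.30, whereas the slide 3 points of TFF2 and SOX2, at -1.57 and -1.68, stand apart from the others.

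**Figure D3:**
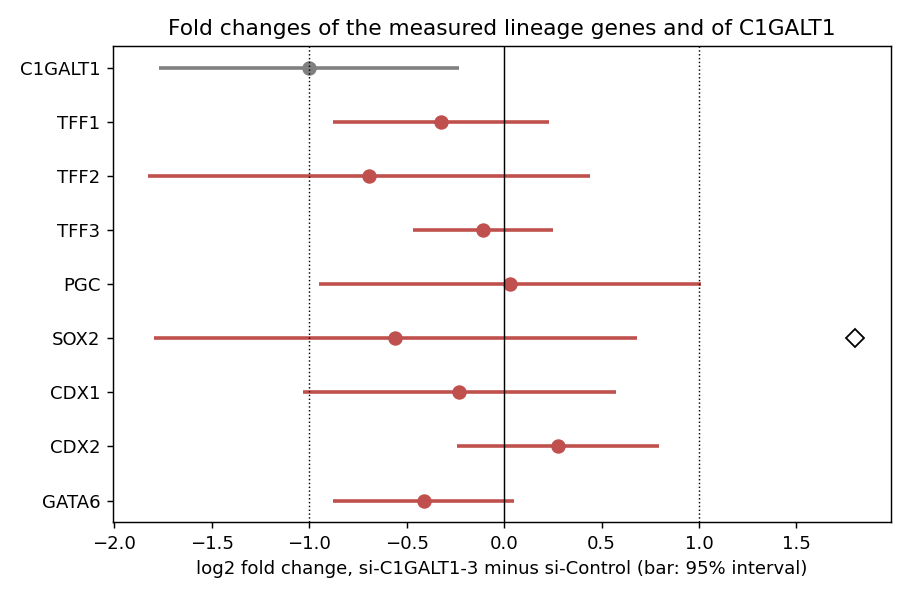
Fitted log2 difference (x axis, si-C1GALT1-3 minus si-Control) with its 95% interval for the 8 measured lineage genes (red) and the siRNA target C1GALT1 (grey), with dotted lines at 2-fold either way and an open diamond for SOX2 with the dim area kept. Every lineage interval includes 0, the interval of C1GALT1 does not, and the SOX2 diamond lies at 1.80.

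Wider lists of the same programmes set these values in context, again read by the probe with the highest mean signal. Of all named genes, 3.41% passed the threshold that way, and 2.08% of all named genes passed it as higher. Both shares include dim genes. Counted in the same way, 2 of 25 gastric genes, 1 of 35 intestinal genes and 2 of 35 transcription factor genes passed, all as higher. The share among only the named genes well above background was not counted. In the gastric differentiation list, 25 of 30 genes had a probe and 15 were well above background on all arrays read in at least 1 group. Of these 15, MUC1 and PSCA passed the threshold and rose, none passed it below 0 in the main fit, and the median difference was -0.036, with 7 above 0 and 8 below. GKN2, LIPF, ATP4B, CHIA, SST and KCNE2, products of pit, chief, parietal and endocrine cells among others, were below that mark on every array, as GKN1 was. MUC5AC, the surface mucin of the stomach, had no probe matched here.

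MUC1, a membrane mucin of gastric surface cells, had signals of 10.99, 12.01 and 10.503 in si-Control and of 13.63, 13.87 and 13.01 in si-C1GALT1-3. All knockdown samples were above all controls, with a difference of 2.34 (SE 0.44, limma adjusted p 0.137), and a second probe gave 2.27 (SE 0.39). It passed in 15 of 17 alternative analyses, the exceptions being the methods' t-test and the analysis without si-Control 1, where the difference was 2.25 (SE 0.54). PSCA, a small surface-anchored protein of gastric epithelium, had signals of 7.86, 8.30 and 7.68 in si-Control and of 11.49, 10.999 and 9.78 in si-C1GALT1-3. The groups were apart, the difference was 2.81 (SE 0.47, limma adjusted p 0.115), and it passed in all 17 alternative analyses. The lowest value of the list was that of TFCP2L1, a transcription factor, at -0.93 (SE 0.21, limma adjusted p 0.166), which missed the 2-fold limit. TFCP2L1 passed in 2 of 17 alternative analyses.

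In the intestinal differentiation list, 35 of 36 genes had a probe and 22 were well above background in at least 1 group. CDH17 alone passed the threshold and rose, none passed below 0 unless the slide was taken as a block, and the median of the 22 was 0.21, with 16 above 0 and 6 below. CDH17, the intestinal cadherin, had signals of 11.66, 13.05 and 11.92 in si-Control and of 13.72, 13.99 and 13.48 in si-C1GALT1-3. The difference was 1.52 (SE 0.39, limma adjusted p 0.209), the groups did not overlap, and it passed in 9 of 17 alternative analyses. It passed without si-Control 2, at 1.94 (SE 0.21), and did not pass when any 1 of the other 5 samples was left out: 1.25 without si-Control 1, 1.38 without si-Control 3, and 1.53, 1.39 and 1.64 without si-C1GALT1-3 1, 2 and 3. CDH17 stands in a gene list that the study drew from these same samples, so its count is not independent evidence of a direction. The lowest value was that of REG4, a secreted lectin of intestinal endocrine and goblet cells, at -1.41 (SE 0.85, limma adjusted p 0.532), whose groups overlapped. Within slides its differences were -1.10, -1.32 and -1.81, and with the slide as a block REG4 passed the threshold (SE 0.19, unadjusted limma p 0.00287), as did its second probe at -1.42 (SE 0.27). With 1 array left out and no block, REG4 lay between -2.15 (without si-Control 1) and -0.77 (without si-Control 3).

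Of 37 further gut transcription factors and regulators, 35 had a probe and 30 were well above background in at least 1 group. ID2 and ELF3 passed the threshold and rose, none passed it below 0 in the main fit, and the median was 0.036, with 18 above 0 and 12 below. ID2, an inhibitor of basic helix-loop-helix factors, had signals of 11.53, 12.37 and 11.95 in si-Control and of 13.40, 13.15 and 13.64 in si-C1GALT1-3, a difference of 1.45 (SE 0.26, limma adjusted p 0.128) that passed in all 17 alternatives. Its dimmer probe gave 1.14 (SE 0.33) and did not pass. ELF3, an epithelial ETS factor, was read at 13.91 and 14.27 in si-Control 1 and 3 and at 15.08, 15.19 and 15.13 in si-C1GALT1-3, a difference of 1.04 (SE 0.18, limma adjusted p 0.141) that passed in 8 of the 16 alternatives that gave a value. It did not pass without si-Control 1, at 0.86 (SE 0.19), nor without si-C1GALT1-3 1, 2 or 3, at 1.07, 1.01 and 1.05, nor with the slide as a block, at 1.01 (unadjusted limma p 0.0176). FOXA1, a pioneer factor of endoderm, had the lowest value, -0.93 (SE 0.18, limma adjusted p 0.140), with all knockdown samples below all controls but less than a 2-fold difference. Its unadjusted limma p of 0.0024 was close to the 0.0026 of ELF3, so only the 2-fold limit kept it from passing. FOXA1 passed in 2 of 17 alternative analyses.

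Markers of other cells were read beside these lists. By the brightest probe, none of the 8 epithelial, 7 fibroblast and muscle, 5 leukocyte and 3 endothelial markers passed the threshold. The median difference, dim genes included, was -0.18 for the epithelial list, 0.47 for fibroblast and muscle, -0.33 for leukocyte and -0.66 for endothelial. The endothelial value was that of PECAM1, whose brightest probe was well above background on 1 of 3 arrays in each group. VWF gave -1.03 on its brightest probe and 0.45 on the other. PTPRC, a leukocyte gene that also stands in a list the study drew from these samples, had 5 probes that disagreed. Its brightest gave -0.33 (SE 0.21), and a dimmer one passed the threshold at 1.90 (SE 0.39) with its groups apart. A further dim probe, not well above background on any control array, also passed. The part of PTPRC in the lineage values was not tested. Of the 7 fibroblast and muscle markers, COL1A1, COL3A1, DES and MYH11 were well above background on all arrays read in at least 1 group, and COL1A2 and LUM were so on no array. COL3A1, a fibrillar collagen, differed by 1.17 (limma adjusted p 0.350), with 1.81, 0.71 and 1.00 on slides 1, 2 and 3, and its part in the lineage values was not tested either.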

How the data were processed

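Total RNA was labelled and hybridized by the authors, who deposited per-spot fluorescence intensity from Agilent Feature Extraction (version 10.5.1.1 in the submitters' processing notes). The processed signal is background-corrected there, with no normalization across arrays. Control spots were left out, and spots marked non-uniform or as population outliers (100 to 424 per array) were set to missing, as were spots in rows 113 to 288 and columns 59 to 115 of si-Control 2. Values were taken to log2 and quantile normalized over 6 arrays, spots of a probe were averaged, and groups were compared with limma version 3.58.1 (lmFit, eBayes) in R version 4.3.3, without a filter on dim probes. The mean spot signal is not used here, and the normexp alternative took the median spot signal, with an offset of 50. A change meant p under 0.01 with at least a 2-fold difference, with Benjamini-Hochberg adjustment over 58193 probes. A gene counted as measured where its brightest probe was well above background on all arrays read in at least 1 group.

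Probes were named by RefSeq accession through a RefSeq table of GRCh38.p14, which gave a symbol to 31104 of 58201 probes. The files' own build is another, so no probe coordinates are given. A gene was read by its probe with the highest mean log2 signal. Genes named are C1GALT1, the 10 lineage genes, the cell type markers, and from each wider list every changed gene, the largest rise and fall among measured genes, and defining genes not above background. The lineage genes and lists were chosen with earlier results of these data known. Nothing in the labels says that samples came from separate cultures, so p-values measure only the spread between these samples, and 3 arrays per group limit the precision.

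Groups came from the sample titles. Arrays of the same replicate number share a slide per the file headers. Their deviations from the group means correlated at 0.198, 0.215 and 0.329 over 48794 probes, so the numbers were taken as pairs, and the block was run as an alternative. The other alternatives were the 75th percentile or no normalization, normexp, the dim area kept or masked on all arrays, dim probes left out, a trend and robust prior, the methods' t-test, marked spots kept, the series table (values under 10 set to 10), the median over probes, each probe on its own, and leaving out each array. The fit was tested on simulated data.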

Additional observations from a re-analysis of the deposited data

How the results depend on the processing

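None of the 8 measured lineage genes passed the threshold in any analysis run, the replicate block included, which changed no call among them. In the wider lists the block added REG4 (-1.41) and lost ELF3 (1.01). The median of all probes moved by over 0.1 only under 75th percentile normalization, to -0.11, where the median of the 8 genes was -0.35. PGC reversed to -0.085 with the dim area kept and to -0.62 on probe A_23_P7965 alone, and ranged from -0.25 to 0.38 with 1 array left out. By the median over probes PGC was at -0.87 and TFF3 at -1.702. On si-Control 2 that median took the brightest probe alone, since the dimmer probes of both genes were set to missing there. Both values therefore set unlike probes against each other and are not read as shifts of the genes. SOX2 was 1.80 with the dim area kept and ranged from -1.15 to 0.039 with 1 array left out. The cause of the remaining shifts was not tested, beyond the lower intensity of the dim area and the different probes read.

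Over all probes, 1538 changed, against 920 with normexp, 896 by the methods' t-test and 1135 to 1818 with 1 array left out. The share of changed probes that were higher was 62.5%, against 40.2% with the dim area kept, 72.6% with no normalization and 52.1% without si-Control 1. At an adjusted p under 0.05 there were 49 probes, against 31 with the 75th percentile, 429 with normexp, 545 with dim probes left out, 74 with the series table, 2 by the t-test, and 0 with no normalization, the dim area kept, the replicate block, the trend and robust prior or marked spots kept, and 0 with any 1 array left out. By limma 8028 probes had an unadjusted p under 0.05. The wider lists had 5 changed genes, 3 by the t-test, 3 without si-Control 1, 9 without si-Control 3 and 3 without si-C1GALT1-3 1. Signal over background limits GKN1 and CLDN18, and the array number limits the rest.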
